A study of Homo sapiens with 22 samples.

Results

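The comparison set 3 established glioblastoma cell lines (KALS-1, LN-18 and T98G, 6 libraries) against 5 others (KNS-42, LN-229, SNU-1105, U-138MG and U-87MG, 10 libraries), in the deposited table of 2221 genes that holds these 8 lines. All 2221 genes entered, and the 16 libraries were 16 of the 22 in the series. Glioblastoma is a malignant brain tumour, and each line is a culture grown for long outside the patient, so a side here is a set of unrelated cultures and not a tumour subtype. All cells were untreated. Fetal bovine serum was 10% throughout. The basal medium was RPMI for KALS-1 and SNU-1105, DMEM for LN-18, KNS-42 and LN-229, and EMEM for T98G, U-138MG and U-87MG, so each medium occurred on both sides. Poly(A) RNA was sequenced with strand information kept, with 2 libraries per line. Whether these came from separate cultures is not stated, and their spread may be technical; the line mean was therefore the replicate, 3 against 5.

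The split is not a genotype or treatment that the labels name. The deposited rows were probably chosen on it. Of the 2221 genes, 99.28% had side means at least 2-fold apart, and the table lists the 10 libraries of the 5 lines first and the 6 others last. The row order also follows the split, with 107 of the separated genes in the first 200 rows and 0 in the last 200. A difference between side means is therefore a property of the table. Whether a gene's difference is shared by every line of a side or carried by 1 or 2 of them is not fixed by that choice, and is described here. A gene was called separated when every library of a side was above every library of the other, with at least 10 reads in each library of the higher side. This is an order and no test.

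Several pathways recur in these genes. Interferons are secreted antiviral signals that switch on a common set of genes through STAT and IRF transcription factors. NRF2 is a transcription factor that raises antioxidant and detoxifying enzymes when released from its inhibitor KEAP1. Bone morphogenetic proteins (BMPs) and TGF-beta are secreted ligands that act through paired serine/threonine kinase receptors, and in glioblastoma TGF-beta signalling and transcription factors such as ZEB2 are known for their link to a mesenchymal state.

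Library totals ran from 17117491 to 21011463 reads, of which the listed genes held 5.81% to 10.2%. Levels are reads per 1000000 of the library total (CPM). A line is given by the mean of its 2 libraries with their SD after ±, and a range over lines is one of line means. A library with no read of a gene still allows 3 reads, or 0.143 to 0.175 CPM by its total, for counting error alone. The 2 T98G libraries were unlike each other: 58.6% of its genes with at least 40 reads over both lay within 1.5-fold, against 74.5% in SNU-1105 and 90.2% to 97.7% in the other 6 lines. None of 9 glial, 4 endothelial and 6 fibroblast or pericyte defining markers is among the listed genes, so the label of the lines could not be checked against them. Of longer lists, 3 of 20 astrocyte and oligodendrocyte genes were listed, with sums of 34.4 to 108 CPM in KALS-1, LN-18 and T98G and 457 to 1170 CPM in the 5 lines. Of 16 fibroblast and pericyte markers 5 were listed, with sums of 1.58 to 13.4 CPM and 9.13 to 643 CPM, and of 16 endothelial markers 3, with sums of 18.8 to 34.6 CPM and 0.103 to 95.9 CPM. The part of other cell types in the results was not tested. Of 4 neural progenitor markers, SOX2 is listed (line means of the 3 lines up to 2.62 CPM, the 5 lines up to 800 CPM), and of 7 immune markers 4 are listed, with sums of 2.11 to 17.7 CPM in KALS-1, LN-18 and T98G and 0.871 to 24.8 CPM in the 5 lines. None of 16 genes of alkylation and mismatch repair searched for, MGMT among them, is in the table analysed here.

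Of the 2221 genes, 898 had the higher mean in KALS-1, LN-18 and T98G and 1323 in the 5 lines, that is 40.4% and 59.6%, yet few were shared. Every library of KALS-1, LN-18 and T98G was above the other 10 in 97 genes, 4.37% of the table. Every library of the 5 lines was above the other 6 in 131 genes, 5.9%, which makes 228 in all or 10.3%. By line means alone, with no minimum of reads, all 3 lines were above all 5 in 13.3% of genes and all 5 above all 3 in 14.6%. The counts of each list and family are read against these shares. The sides stood close even there: the nearest libraries of the sides were at least 2-fold apart in 28 of the 97 and 24 of the 131, and the median ratio of nearest libraries was 1.41 and 1.31. Within the higher side, line means of a separated gene spanned a median of 2.29-fold over KALS-1, LN-18 and T98G and 3.25-fold over the 5 lines. The result for the 5 lines depended on the scaling. With TMM factors, which are computed from the listed genes and lay at 0.679 to 0.802 for the 3 lines and 1.05 to 1.29 for the 5, the counts were 234 and 39, and with RLE factors 221 and 45. All 97 stayed separated under both, but 37 of the 131 did. The side with the higher mean changed in 1 gene of 2221. Genes of the 5 lines that lost their separation are marked.

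**Figure D1:**
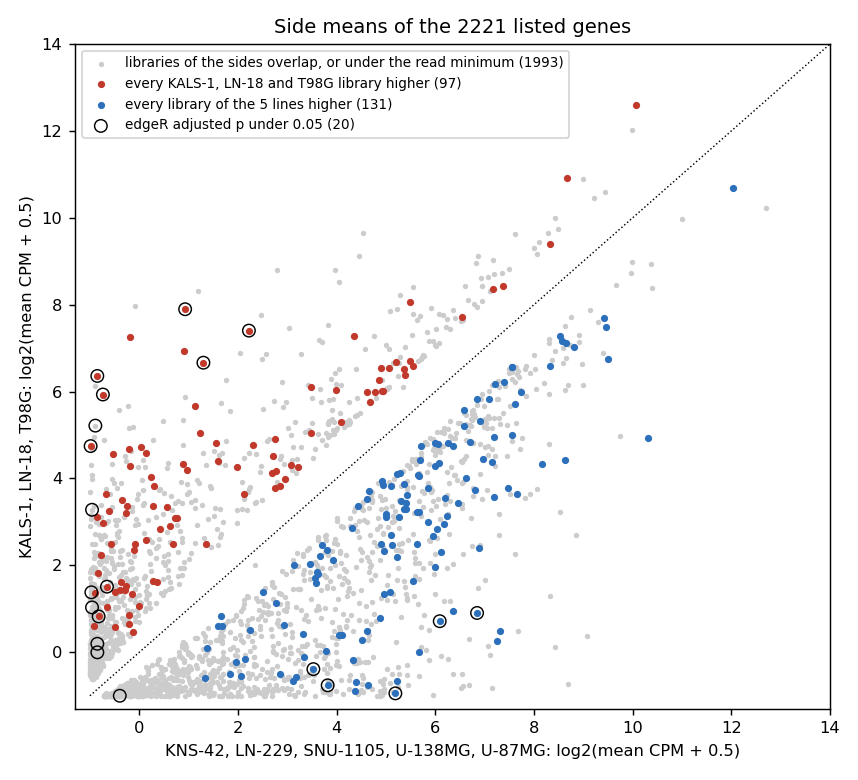
Mean CPM of KALS-1, LN-18 and T98G (vertical) against the mean of the 5 other lines (horizontal), both as log2(CPM + 0.5), with 1 point per gene. Nearly all points avoid the diagonal, as the 99.28% of rows at least 2-fold apart require, while the 97 and 131 separated genes are a small coloured share and the 20 circled genes passed the edgeR test.

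Among genes above 10 CPM in all 3 lines, the widest gap belonged to NYAP2 (ENSG00000144460, chr2:225399710-225654018), an adaptor that couples tyrosine phosphorylation to PI3-kinase in neurons. Its level was 98.4 CPM ± 1.25 in KALS-1, 38.6 ± 1.3 in LN-18 and 44.7 ± 19.6 in T98G, and the 5 lines ranged from 0 CPM (U-138MG) to 0.351 (SNU-1105). No library of the 5 lines came near the lowest of the 6, which was 30.9 CPM. KRT81 (ENSG00000205426, chr12:52285913-52291534), a type II hair keratin, was next, at 573 CPM ± 5.41 in KALS-1, 106 ± 0.611 in LN-18 and 34.4 ± 23.2 in T98G, and the 5 lines ranged from 0.175 CPM (U-138MG) to 3.03 (LN-229). T98G held the low end of the 3 here, and its 2 libraries differed widely. ALX4 (ENSG00000052850, chr11:44260440-44310166), a homeobox transcription factor of skull and limb patterning, had 11.7 CPM ± 0.622 in KALS-1, 21.2 ± 1.6 in LN-18 and 38.1 ± 8.43 in T98G, while the 5 lines ranged from 0 CPM (U-87MG) to 2.57 (SNU-1105). EEF1A2 (ENSG00000101210, chr20:63488012-63499322), the elongation factor isoform usual in neurons and muscle, had 203 CPM ± 3.95 in KALS-1, 257 ± 8.46 in LN-18 and 46.5 ± 13.1 in T98G, while the 5 lines ranged from 1.38 CPM (U-87MG) to 10.1 (LN-229). For each of these 4 genes the nearest libraries of the sides were at least 3.64-fold apart. The rest of the 15 widest gaps held BST2, IFITM1, TXNRD1, FMNL1, MAP3K14, RPL39 and its pseudogene RPL39P3, TLCD4, SYDE2, CAP2 and MTUS1. MTUS1 codes for a microtubule-associated protein, with 20.6 CPM ± 0.55 in KALS-1, 25.6 ± 0.363 in LN-18 and 105 ± 13.9 in T98G. Among the 5 lines LN-229 stood apart at 7.76 CPM with the other 4 at or below 0.231. CAP2, an actin regulator, was even over the 3 lines, at 106 CPM ± 0.533 in KALS-1, 91.7 ± 1.3 in LN-18 and 110.1 ± 29.6 in T98G, and the 5 lines ranged from 17.4 CPM (U-87MG) to 57.5 (SNU-1105).

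In the other direction the widest gap was that of GPC6 (ENSG00000183098, chr13:93226842-94407401), a glypican, a heparan sulfate proteoglycan held at the cell surface. Its level was 49.5 CPM ± 6.33 in KNS-42, 105 ± 11.9 in LN-229, 59.7 ± 11.3 in SNU-1105, 161 ± 7.08 in U-138MG and 198 ± 9.23 in U-87MG. GPC6 in the 3 lines ranged from 0.817 CPM (KALS-1) to 1.83 (T98G). Every line of a side was well clear of the other side, with the nearest libraries 17.7-fold apart. JAKMIP2 had 14.3 CPM ± 1.95 in KNS-42, 32.8 ± 0.525 in LN-229, 20.2 ± 4.17 in SNU-1105, 10.8 ± 1.99 in U-138MG and 20.6 ± 3.41 in U-87MG. JAKMIP2 in the 3 lines ranged from 0 CPM (T98G) to 0.672 (LN-18). SORBS2 (ENSG00000154556, chr4:185585444-185956652), an adaptor of actin and adhesion sites, had 95.8 CPM ± 7.24 in KNS-42, 125 ± 12.7 in LN-229, 31.5 ± 1.84 in SNU-1105, 24.7 ± 1.49 in U-138MG and 60.9 ± 1.76 in U-87MG. SORBS2 in the 3 lines ranged from 0.411 CPM (T98G) to 2.48 (LN-18). LN-18 was the highest of the low side for both. ANK2, the membrane-cytoskeleton linker ankyrin-B, ranged over 28.8 to 137.6 CPM in the 5 lines and 0.425 to 6.82 CPM in the 3. PDZRN3, a ubiquitin ligase, had line means close to each other in the 5 lines, with 65.1 CPM ± 1.87 in KNS-42, 56.7 ± 1.97 in LN-229, 62.4 ± 30.6 in SNU-1105, 64.4 ± 2.41 in U-138MG and 65.6 ± 9.69 in U-87MG, while the 3 lines held 1.04 CPM ± 0.0213 in KALS-1, 0.801 ± 0.197 in LN-18 and 8.38 ± 5.41 in T98G. DOK1, a docking adaptor of tyrosine kinases, ranged over 25.8 to 56.5 CPM against 8.55 to 9.67 CPM. PROS1, the anticoagulant protein S, ranged over 38.9 to 102 CPM against 7.06 to 15.6 CPM. Others of the 15 were OSBP2, an oxysterol-binding protein, SLC35E4, the mesenchymal homeobox gene PRRX1, the calcium/calmodulin-dependent kinase CAMK2D, SH3D19, CD109 and SASH1. SH3D19, CD109 and SASH1 were not separated under the TMM and RLE scalings, whereas the other 12 were.

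**Figure D2:**
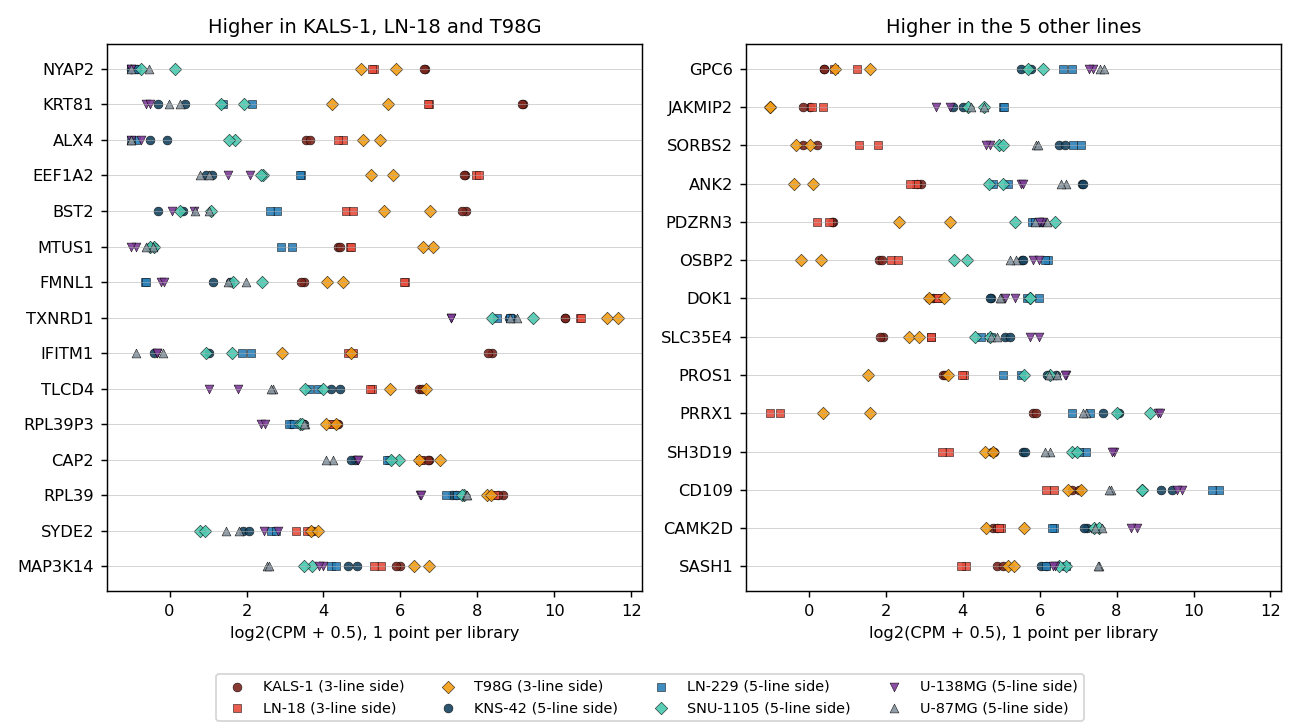
Level of genes with the widest gap in each direction (15 of the 3 lines and 14 of the 5), as log2(CPM + 0.5) on the horizontal axis, with 1 point per library and the lines told apart by colour and shape. In each row the 2 sides do not overlap; NYAP2 and GPC6 at the top have wide gaps, and at the bottom MAP3K14 and SASH1 nearly touch.

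The edgeR quasi-likelihood test on line sums kept 1705 genes and called 20 of them, 1.17% of those tested. A call needed a difference of at least 2-fold with an adjusted p (Benjamini-Hochberg) under 0.05. Of these 14 were higher in KALS-1, LN-18 and T98G (0.821%) and 6 in the 5 lines (0.352%), and 13 of the 20 were separated. At an unadjusted p under 0.05 there were 772 genes, 45.3%, in a table whose rows were probably picked for their difference. The number depended on each line and on several libraries. The test called 1 gene without KALS-1 and 0 without any of the other 7 lines in turn. Of the libraries, it called 0 without the second KALS-1 library or the first SNU-1105 library, 1 without the first T98G library, 2 without the first KALS-1 library, 11 without the second LN-18 library and 13 without the second SNU-1105 library. All 20 were also called with TMM factors (40 calls), RLE factors (52) and DESeq2 (860 of 1582, 54.4%), but limma on line means called 62 (3.64%) with 14 of the 20 among them, and limma on libraries with a correlation within lines 17 of the 20.

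Among the 14, the log2 fold change was 9.20 ± 1.44 (SE; edgeR adjusted p = 0.0427) for NYAP2, 7.40 ± 1.29 (SE; edgeR adjusted p = 0.0427) for KRT81, 5.34 ± 0.90 (SE; edgeR adjusted p = 0.0427) for EEF1A2 and 5.67 ± 1.07 (SE; edgeR adjusted p = 0.047) for BST2. OLR1 (ENSG00000173391, chr12:10158301-10172138), the receptor for oxidised low-density lipoprotein, was called with an adjusted p of 0.0397 by edgeR; its level was 1.47 CPM ± 0.67 in KALS-1, 43 ± 0.361 in LN-18 and 34.5 ± 29.4 in T98G, and 1 read was counted over all 10 libraries of the 5 lines against 3002 in the 6 others. The ratio of pooled levels was 5379-fold, with a 95% exact interval of 965 to 212530 for counting error alone. TMEM52B, which overlaps OLR1 on the opposite strand, had 0.89 CPM ± 0.185 in KALS-1, 59.6 ± 0.898 in LN-18 and 184 ± 104 in T98G and at most 0.174 CPM in a line of the 5. In both genes KALS-1 was far below LN-18 and T98G, which gave most of the side mean. The same held for SLC7A2, a transporter of cationic amino acids, with 0.533 CPM ± 0.32 in KALS-1, 49.5 ± 2.2 in LN-18 and 60.1 ± 13.1 in T98G; it was called but fell under the read minimum for separation. NOG, the secreted BMP antagonist noggin, and FMNL1-DT, a transcript divergent from FMNL1, were called at low level, with 2.6 CPM ± 0.208 in KALS-1, 3.48 ± 0.101 in LN-18 and 0.971 ± 0.0513 in T98G for NOG and 1.05 CPM ± 0.253 in KALS-1, 1.93 ± 0.145 in LN-18 and 0.836 ± 0.0573 in T98G for FMNL1-DT. The remaining 5 of the 14 (GLP2R, KCNJ12, LINC00519 and 2 unnamed long noncoding RNAs) had a side mean under 10 CPM and were not separated; they are named here after their values were seen.

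Of the 6 genes called higher in the 5 lines, the log2 fold change was -6.37 ± 0.88 (SE; edgeR adjusted p = 0.0397) for GPC6, -5.88 ± 1.12 (SE; edgeR adjusted p = 0.047) for SORBS2, -5.35 ± 0.98 (SE; edgeR adjusted p = 0.0428) for RFTN2 and -7.21 ± 1.23 (SE; edgeR adjusted p = 0.0427) for STXBP6. RFTN2, a raftlin of lipid rafts, had 19.8 CPM ± 4.41 in KNS-42, 10.1 ± 2.49 in LN-229, 7.51 ± 0.0808 in SNU-1105, 10.4 ± 0.146 in U-138MG and 7.34 ± 1.48 in U-87MG. RFTN2 in the 3 lines ranged from 0.131 CPM (KALS-1) to 0.363 (LN-18). STXBP6, a binding partner of syntaxin SNARE proteins, had 2.87 CPM ± 0.521 in KNS-42, 17.9 ± 3.56 in LN-229, 11.9 ± 2.94 in SNU-1105, 19.4 ± 3.72 in U-138MG and 16 ± 0.759 in U-87MG. STXBP6 in the 3 lines ranged from 0.0265 CPM (T98G) to 0.129 (LN-18); KNS-42 stood below the other 4. SGCD (ENSG00000170624, chr5:155870344-156767788), delta-sarcoglycan of the dystrophin complex, had 8.6 CPM ± 2.18 in KNS-42, 27.9 ± 4.56 in LN-229, 14 ± 2.52 in SNU-1105, 123 ± 5.38 in U-138MG and 6.12 ± 0.166 in U-87MG, and 2 reads in all over the 6 libraries of the 3 lines against 7205 in the 10 others. Its ratio of pooled levels was 2011-fold (95% exact interval 556 to 16605, counting error alone), and its adjusted p by edgeR was 0.0476. The sixth was an unprocessed pseudogene without a symbol, with a mean of 0.261 CPM in the 5 lines and 0 reads in the 3.

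In the interferon list the side means lay 1 way, while the lines that carried them differed from gene to gene. Of its 45 genes 27 were listed, and all 27 had the higher mean in KALS-1, LN-18 and T98G, also under TMM and RLE scaling, against 40.4% of all rows; 1 of 26 tested passed edgeR's test and 2 were separated, 7.41% against 4.37% of all rows. The median log2 difference of the list was 3.08, beside -1.67 over all tested genes. KALS-1 was above all 5 lines in 23 of the 27 (85.2%, against 28.5% of all rows), LN-18 in 13 (48.1% against 33.3%) and T98G in 11 (40.7% against 25.1%). All 3 were above in 6 (IFITM1, IFITM3, ISG15, ISG20, BST2 and EPSTI1), 22.2% against 13.3% of all rows. IFI27, an interferon-induced mitochondrial protein, was at 745 CPM in KALS-1, 0.518 in LN-18 and 0.138 in T98G, with 0.0748 to 0.806 CPM in the 5 lines. MX1, an antiviral GTPase, had 621 CPM ± 1.3 in KALS-1, 15.9 ± 0.696 in LN-18 and 10.49 ± 1.19 in T98G, and the 5 lines ranged from 1.49 CPM (KNS-42) to 12.1 (SNU-1105). IFI6 had 1314 CPM ± 5.5 in KALS-1, 16.2 ± 1.08 in LN-18 and 11.7 ± 2.69 in T98G, and the 5 lines ranged from 6.74 CPM (U-87MG) to 23.6 (SNU-1105). For these 3 genes, chosen after their values were seen, KALS-1 alone was far above the 5 lines. XAF1 ran the other way, with 0.292 CPM ± 0.165 in KALS-1, 4.55 ± 0.973 in LN-18 and 10.3 ± 4.2 in T98G, and the 5 lines were at most 0.882 CPM (LN-229). IFITM3, which blocks virus entry, was highest in T98G, at 83.7 CPM ± 9.44 in KALS-1, 168 ± 1.01 in LN-18 and 391 ± 62.6 in T98G, while the 5 lines ranged from 12.3 CPM (U-87MG) to 75.2 (LN-229). Without KALS-1, 7 of the 27 separated LN-18 and T98G from the 5 lines (IFI35, IFITM1, IFITM2, IFITM3, IRF1, XAF1 and BST2), and without T98G 8 separated KALS-1 and LN-18 (IFITM1, MX1, OAS3, ISG15, ISG20, BST2, EPSTI1 and CGAS). Over all rows these steps took the count from 4.37% to 10.31% and 10.99%. With TMM and RLE factors 8 of 27 were separated, while over all 2221 rows the count went from 97 to 234 and 221.

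BST2 and IFITM1 were the 2 shared by all 3 lines as scaled by library totals. BST2 (ENSG00000130303, chr19:17402939-17405648), or tetherin, holds budding virus particles at the cell surface. Its level was 199.7 CPM ± 9.97 in KALS-1, 25.1 ± 2.19 in LN-18 and 78.2 ± 44.2 in T98G, and the 5 lines ranged from 0.538 CPM (KNS-42) to 6.01 (LN-229). IFITM1 (ENSG00000185885, chr11:313506-315272) had 323 CPM ± 16.2 in KALS-1, 25.5 ± 1.5 in LN-18 and 16.5 ± 13.3 in T98G, and the 5 lines ranged from 0.22 CPM (U-87MG) to 3.53 (LN-229); its edgeR adjusted p was 0.0604 at a log2 fold change of 6.45 ± 1.36 (SE). The low end was LN-18 for BST2 and a T98G library at 7.05 CPM for IFITM1. GBP4, a guanylate-binding protein induced by interferon gamma, was separated too, with 34.7 CPM ± 1.06 in KALS-1, 16.2 ± 0.866 in LN-18 and 7.84 ± 0.602 in T98G, and the 5 lines ranged from 0 CPM (U-138MG) to 4.4 (LN-229). PSMB9 and PSMB10, catalytic subunits of the interferon-inducible immunoproteasome, were separated by less, PSMB9 with 49.2 CPM ± 0.896 in KALS-1, 37.5 ± 0.433 in LN-18 and 29.1 ± 3.19 in T98G against 9.31 to 23.6 CPM. PSMB10 had 13.7 CPM ± 0.00724 in KALS-1, 16.2 ± 2.29 in LN-18 and 22.4 ± 1.81 in T98G against 2.69 to 10.4 CPM. In both, KALS-1, LN-18 and T98G were close to each other, unlike in MX1.

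The promoters of BST2, IFITM1, PSMB10 and GBP4 are shown, chosen because they hold the core of the interferon-stimulated response element. The motif, GAAA, any 2 bases and GAAA again, was searched on both strands of 300 bases that run from 250 before to 50 after the start in RefSeq (GRCh38.p14). Capitals mark the match or overlapping matches, and in GBP4 the match is on the opposite strand; each sequence is 5′ to 3′ along its gene.

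BST2, chr19:17405581-17405880, minus strand: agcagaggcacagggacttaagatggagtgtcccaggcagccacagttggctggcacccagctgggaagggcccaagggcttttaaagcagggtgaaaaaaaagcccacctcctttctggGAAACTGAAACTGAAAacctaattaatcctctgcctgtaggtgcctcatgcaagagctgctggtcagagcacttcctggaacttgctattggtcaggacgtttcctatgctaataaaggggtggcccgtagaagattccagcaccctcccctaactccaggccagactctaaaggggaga

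IFITM1, chr11:313790-314089, plus strand: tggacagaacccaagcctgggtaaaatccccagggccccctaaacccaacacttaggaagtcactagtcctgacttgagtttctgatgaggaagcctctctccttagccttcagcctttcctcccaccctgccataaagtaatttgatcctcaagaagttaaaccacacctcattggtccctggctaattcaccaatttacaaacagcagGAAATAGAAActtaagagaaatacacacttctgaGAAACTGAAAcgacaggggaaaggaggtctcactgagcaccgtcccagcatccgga

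PSMB10, chr16:67936801-67937100, minus strand: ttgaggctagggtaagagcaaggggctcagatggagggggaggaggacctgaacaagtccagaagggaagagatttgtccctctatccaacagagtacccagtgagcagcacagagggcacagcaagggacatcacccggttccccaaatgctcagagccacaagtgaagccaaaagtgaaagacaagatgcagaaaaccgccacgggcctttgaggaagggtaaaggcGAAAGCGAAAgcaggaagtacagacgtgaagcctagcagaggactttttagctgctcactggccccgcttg

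GBP4, chr1:89198893-89199192, minus strand: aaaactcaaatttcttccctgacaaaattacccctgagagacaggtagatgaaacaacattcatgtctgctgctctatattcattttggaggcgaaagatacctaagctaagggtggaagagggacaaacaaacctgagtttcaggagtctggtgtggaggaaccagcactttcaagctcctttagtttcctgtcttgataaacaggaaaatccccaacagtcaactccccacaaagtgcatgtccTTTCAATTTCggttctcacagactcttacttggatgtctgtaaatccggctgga

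BST2 had 2 overlapping matches, starting 130 and 124 bases before its start, and IFITM1 had 2 apart, at 40 and 6 bases before; PSMB10 had 1 at 21 bases and GBP4 1 at 4 bases. RefSeq promoters matched 58 of the 97 genes higher in the 3 lines (59.8%), which is under the 80% needed for a check over the set, so a comparison of shares is void. As a description, 7 of the 58 held the motif (12.1%), the others being TXNRD1, PFDN6 and WDR46, the last 2 of which are divergent neighbours. It was in 3 of 105 promoters of genes higher in the 5 lines, or 2.86% (GPC6, ZEB2 and TRIM2). ZEB2 and TRIM2 were not separated with TMM or RLE factors. The motif was in 4.42% of the 1356 matched listed genes and 3.65% of 27305 RefSeq promoters. PSMB9, the other gene of this group, had no match in its window. A match is not a bound site.

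NRF2 targets were carried by another pair of lines. Of 30 genes on the list 16 were listed and 15 had the higher mean in KALS-1, LN-18 and T98G, under each scaling, against 40.4% of all rows; 0 of 16 passed edgeR's test. T98G was above all 5 lines in 15 of the 16 (93.8% against 25.1% of all rows), LN-18 in 11 (68.8% against 33.3%) and KALS-1 in 2, TXNRD1 among them (12.5% against 28.5%). The median log2 difference was 1.97. TXNRD1 (ENSG00000198431, chr12:104215779-104350305), thioredoxin reductase, was the separated member, with 1241 CPM ± 0.117 in KALS-1, 1637 ± 18 in LN-18 and 2922 ± 416 in T98G, and the 5 lines ranged from 159 CPM (U-138MG) to 514 (SNU-1105); its edgeR adjusted p was 0.0722 at a log2 fold change of 2.25 ± 0.54 (SE). NQO1, a quinone reductase, had 347 CPM ± 8.72 in KALS-1, 1952 ± 97.3 in LN-18 and 3441 ± 1154 in T98G, while the 5 lines ranged from 140.1 CPM (U-87MG) to 1138 (LN-229). SLC7A11, the cystine transporter, had 30.5 CPM ± 2.92 in KALS-1, 984 ± 52.2 in LN-18 and 1362 ± 55.9 in T98G, while the 5 lines ranged from 57.8 CPM (U-138MG) to 496 (SNU-1105). AKR1B10, an aldo-keto reductase, had 1.04 CPM ± 0.0986 in KALS-1, 107 ± 2.21 in LN-18 and 1216 ± 895 in T98G, while the 5 lines ranged from 0.844 CPM (LN-229) to 11.2 (U-138MG). In NQO1, SLC7A11 and AKR1B10 KALS-1 lay inside or below the range of the 5 lines. The same was so for GCLC, of glutathione synthesis (22.7 CPM in KALS-1, 205 in LN-18 and 489.5 in T98G, with 12.9 to 68 CPM in the 5), and FTL, the ferritin light chain (999, 2851 and 8589.7 CPM, with 224 to 2137 CPM). Without KALS-1, 11 of the 16 were separated between LN-18 with T98G and the 5 lines, against 1 when all 8 lines were used; over all rows the share went from 4.37% to 10.31%. ME1, malic enzyme, was the member with the higher mean in the 5 lines, but only in part of them: 0.0737 to 152 CPM. Values of members that were not separated were chosen after they were seen, in each list.

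Antigen presentation genes lay mostly with the 5 lines. Of 26 genes 14 were listed, 11 with the higher mean in the 5 lines under each scaling (78.6%, against 59.6% of all rows). Of these 0 were separated, where 5.9% of all rows were, and 0 of 14 passed edgeR's test. All 11 belong to the class II pathway, which shows peptides to helper T cells. KNS-42, LN-229 and U-87MG were each above KALS-1, LN-18 and T98G in 11 of the 14 (78.6%), U-138MG in 5 (35.7%) and SNU-1105 in 3 (21.4%), where each of the 5 lines was in 42.6% to 47.7% of all rows. CD74, the class II invariant chain, had 399 CPM ± 37.2 in KNS-42, 2029.9 ± 332 in LN-229, 2.79 ± 0.861 in SNU-1105, 1.48 ± 0.259 in U-138MG and 269 ± 17.7 in U-87MG. CD74 in the 3 lines ranged from 0.232 CPM (LN-18) to 1.94 (T98G). HLA-DRA had 491 CPM ± 28.6 in KNS-42, 1064 ± 114 in LN-229, 0.655 ± 0.136 in SNU-1105, 29.1 ± 6.98 in U-138MG and 136 ± 9.27 in U-87MG. HLA-DRA in the 3 lines ranged from 0.0255 CPM (KALS-1) to 1.55 (T98G). CIITA, the class II transactivator, had 91.4 CPM ± 25 in KNS-42, 131 ± 4.46 in LN-229, 3.26 ± 1.14 in SNU-1105, 25.8 ± 5.47 in U-138MG and 41.6 ± 1.58 in U-87MG. CIITA in the 3 lines ranged from 1.11 CPM (KALS-1) to 7.77 (T98G). SNU-1105 was within the range of the low side for HLA-DRA and CIITA, and U-138MG for CD74. Class II genes are alike in sequence and highly polymorphic, so counts of single members are uncertain. Without SNU-1105, 4 members separated (CIITA, HLA-DRA, HLA-DRB1 and HLA-DPA1), and without T98G, which was highest of the low side, also 4 (CIITA, CD74, HLA-DRA and HLA-DMA), where the share of all rows went from 5.9% to 8.64% and 8.46%. The 3 members higher in KALS-1, LN-18 and T98G were PSMB9, PSMB10 and HLA-C, a class I gene with 664 CPM ± 13.2 in KALS-1, 102 ± 0.688 in LN-18 and 479.7 ± 55.8 in T98G, and the 5 lines ranged from 48.4 CPM (LN-229) to 256 (SNU-1105).

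**Figure D3:**
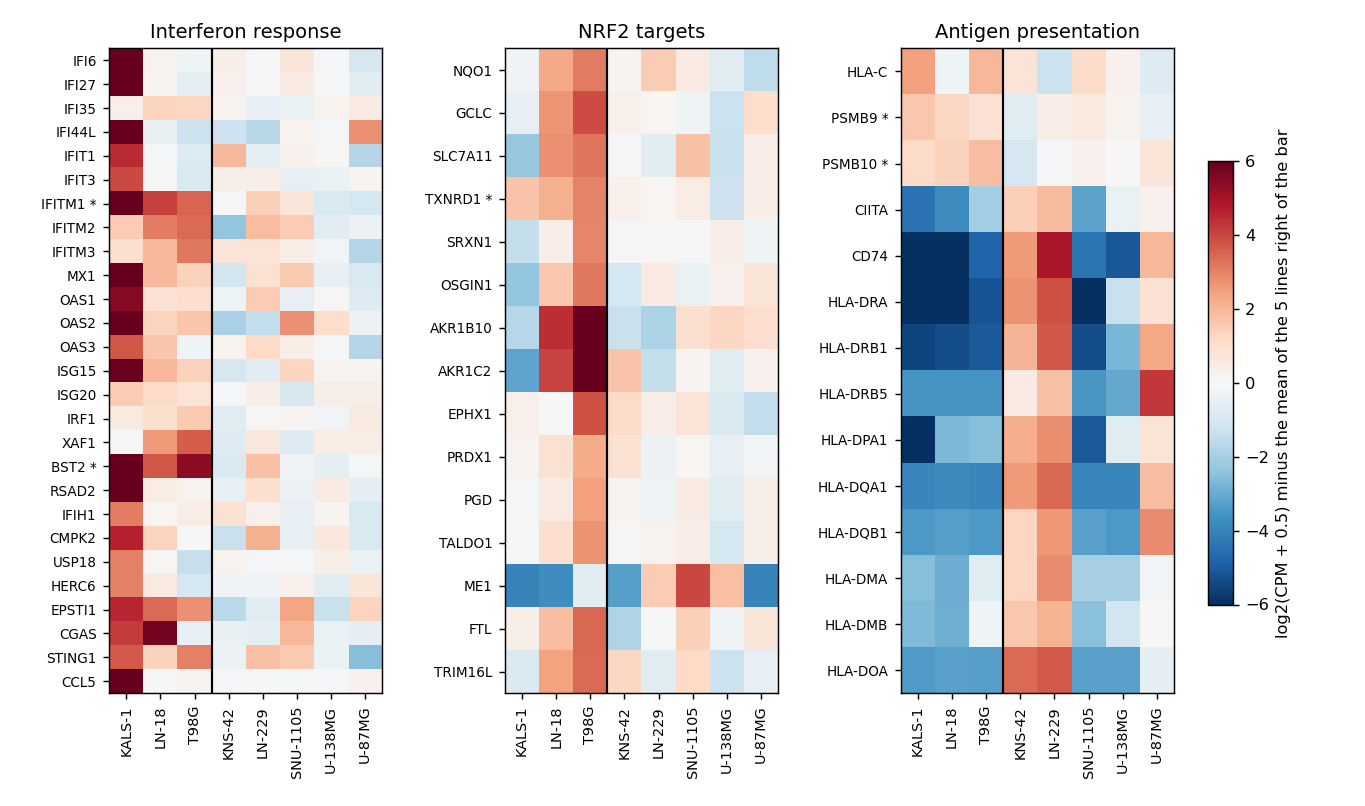
Line means of listed interferon, NRF2 (15 of 16) and antigen presentation genes, as log2(CPM + 0.5) minus the mean of the 5 lines to the right of the black bar, with colour from -6 (blue) to 6 (red) and separated genes starred. Interferon genes are reddest in KALS-1, NRF2 targets in LN-18 and T98G, and class II genes are higher in KNS-42, LN-229 and U-87MG while SNU-1105 resembles the left side.

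Keratins, the intermediate filaments of epithelia, hair and nails, lay mostly with KALS-1, LN-18 and T98G. Of 8 listed, 7 had the higher mean in the 3 lines under each scaling, against 40.4% of all rows. Of the 8, 3 were separated (KRT81, KRT86 and KRT18), 37.5% against 4.37% of all rows, and 1 passed edgeR's test (KRT81). KRT86 had 14.3 CPM ± 0.0499 in KALS-1, 11.5 ± 1.1 in LN-18 and 3.75 ± 1.59 in T98G, and the 5 lines ranged from 0 CPM (U-138MG) to 0.743 (KNS-42). KRT81 and KRT86 are near-identical hair keratins whose annotated spans overlap, so reads may have been split between them. KRT18, a keratin of simple epithelia, had 180.2 CPM ± 10.7 in KALS-1, 205 ± 12.2 in LN-18 and 81.8 ± 40.03 in T98G, and the 5 lines ranged from 0.276 CPM (U-138MG) to 52 (LN-229); its lowest T98G library exceeded the highest LN-229 library by 1.02-fold. Its partner KRT8 had 56.1 CPM ± 1.51 in KALS-1, 154 ± 1.73 in LN-18 and 13.3 ± 0.347 in T98G, and the 5 lines ranged from 0.552 CPM (U-138MG) to 17.5 (LN-229), so T98G was inside the range of the 5. Of 22 simple epithelial genes 6 were listed, all with the higher mean in the 3 lines. KALS-1 and LN-18 were above all 5 lines in 6 of 6, against 28.5% and 33.3% of all rows. T98G was in 2 (33.3% against 25.1%). Without T98G all 6 were separated (KRT8, KRT18, KRT19, KRT80, CDH1 and CDH3), where the share of all rows went from 4.37% to 10.99%. CDH1, or E-cadherin, had 9.54 CPM ± 0.288 in KALS-1, 8.07 ± 0.105 in LN-18 and 0 ± 0 in T98G and was at or under 0.565 CPM in the 5 lines. Epithelial markers summed to 95.03 to 368 CPM over KALS-1, LN-18 and T98G and 0.853 to 69.7 CPM over the 5 lines, with CDH1 at 0 in both T98G libraries.

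Of 42 BMP and TGF-beta genes 10 were listed, 4 higher in KALS-1, LN-18 and T98G and 6 in the 5 lines. The latter is 60% against 59.6% of all rows. Separated were 5 (50% against 10.3%), in both directions, and NOG passed edgeR's test. Of the ligands, TGFB2 had 413 CPM ± 17.2 in KALS-1, 222 ± 11.6 in LN-18 and 169 ± 77.5 in T98G, and the 5 lines ranged from 13.9 CPM (U-87MG) to 90.6 (SNU-1105). The gap was narrow, a ratio of 1.04 between nearest libraries. BMP6 had 47.1 CPM ± 9.36 in KNS-42, 2.17 ± 0.561 in LN-229, 1.79 ± 0.0164 in SNU-1105, 4.09 ± 0.207 in U-138MG and 11.3 ± 0.701 in U-87MG. BMP6 in the 3 lines ranged from 0.139 CPM (KALS-1) to 1.14 (LN-18). Of the receptors, BMPR1B had 10.004 CPM ± 1.06 in KNS-42, 14.4 ± 1.91 in LN-229, 7.58 ± 2.24 in SNU-1105, 10.4 ± 2.06 in U-138MG and 5.88 ± 0.721 in U-87MG. BMPR1B in the 3 lines ranged from 0 CPM (T98G) to 1 (LN-18). ACVR1C, the type I receptor ALK7, had 0.873 CPM ± 0.367 in KNS-42, 1.56 ± 0.554 in LN-229, 2.34 ± 0.581 in SNU-1105, 3.86 ± 0.382 in U-138MG and 1.51 ± 0.198 in U-87MG. ACVR1C in the 3 lines ranged from 0 CPM (T98G) to 0.35 (KALS-1). Thus the antagonist noggin and TGF-beta 2 were on the side of the 3 lines, while BMP6 and the receptors BMPR1B and ACVR1C were on that of the 5. BMP6 was not separated with RLE factors, nor ACVR1C with TMM factors; BMPR1B was under both. CD109, a co-receptor that binds TGF-beta, had 637 CPM ± 90.2 in KNS-42, 1527 ± 127 in LN-229, 405 ± 0.932 in SNU-1105, 796 ± 50.8 in U-138MG and 228 ± 4.81 in U-87MG. CD109 in the 3 lines ranged from 77.1 CPM (LN-18) to 122 (KALS-1).

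Of 24 transcription factors of mesenchymal cells 6 were listed, 5 higher in the 5 lines (83.3% against 59.6% of all rows). Separated were 2 (33.3% against 5.9%), and 0 of 6 passed edgeR's test. PRRX1 had 233 CPM ± 49.2 in KNS-42, 136 ± 31.5 in LN-229, 359.9 ± 147 in SNU-1105, 551 ± 13.2 in U-138MG and 143 ± 5.73 in U-87MG. PRRX1 in the 3 lines ranged from 0.0509 CPM (LN-18) to 57.6 (KALS-1), so KALS-1 stood far above LN-18 and T98G on the low side. ZEB2, a repressor of E-cadherin, had 94 CPM ± 6.96 in KNS-42, 146 ± 10.7 in LN-229, 73.7 ± 9.8 in SNU-1105, 164 ± 18.5 in U-138MG and 249.99 ± 16.5 in U-87MG. ZEB2 in the 3 lines ranged from 11.8 CPM (LN-18) to 56.5 (KALS-1); it was not separated with TMM or RLE factors. Of 7 mesenchymal glioblastoma genes listed, 6 were higher in the 5 lines (85.7% against 59.6% of all rows). VIM, the intermediate filament vimentin, was the separated one (14.3% against 5.9%). VIM had 4897 CPM ± 189 in KNS-42, 3693 ± 154 in LN-229, 3357 ± 153 in SNU-1105, 3919.8 ± 179 in U-138MG and 4946 ± 652 in U-87MG. In the 3 lines VIM had 2334 CPM ± 92.1 in KALS-1, 1241 ± 6.81 in LN-18 and 1367 ± 169.9 in T98G. It was high in every line, and was not separated with TMM factors. TFPI2, a secreted protease inhibitor, had 65.8 CPM ± 0.561 in KNS-42, 117 ± 4.29 in LN-229, 291 ± 211 in SNU-1105, 393 ± 94 in U-138MG and 5437 ± 1574 in U-87MG. TFPI2 in the 3 lines ranged from 9.63 CPM (KALS-1) to 46.2 (LN-18), so U-87MG set its side mean. CD59, a membrane inhibitor of complement, had 665 CPM ± 9.15 in KNS-42, 756 ± 57.7 in LN-229, 632 ± 84 in SNU-1105, 1119.5 ± 30.7 in U-138MG and 363 ± 29.8 in U-87MG. CD59 in the 3 lines ranged from 171 CPM (T98G) to 188 (KALS-1). TFPI2, CD59 and CD109 were not separated with TMM or RLE factors.

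Several families lay wholly on the side of the 5 lines by their means. The 7 structural matrix genes, 6 matrix crosslinking and remodelling enzymes, 6 growth factor receptors, 5 serpins, 8 protocadherins and 5 semaphorins and plexins that were listed had the higher mean in the 5 lines in every case and under each scaling, with 0 separated and 0 called by edgeR. The protocadherins were matched by symbol, and the divergent transcript PCDH10-DT is among the 8. At 59.6% of all rows higher in the 5 lines and 5.9% separated, 0 of families this small is near the share of the table. By line means, all 5 lines were above all 3 in 1 of the 5 serpins and in none of the other 5 families. FN1, or fibronectin, had 163 CPM ± 21.8 in KNS-42, 3196 ± 407 in LN-229, 11243 ± 872 in SNU-1105, 14748 ± 645 in U-138MG and 4065 ± 278 in U-87MG, and 2249.8 CPM ± 23.5 in KALS-1, 344 ± 15.9 in LN-18 and 1011 ± 756 in T98G; KNS-42 was the lowest of all 8 lines. PCDH9, a protocadherin, had 62.6 CPM ± 14.2 in KNS-42, 84.8 ± 16.1 in LN-229, 3.5 ± 0.0693 in SNU-1105, 12.3 ± 2.43 in U-138MG and 75.7 ± 5.02 in U-87MG. PCDH9 in the 3 lines ranged from 0.0584 CPM (T98G) to 5.08 (LN-18), with SNU-1105 inside the range of the 3 lines. Without KNS-42 FN1, NID2 and LOXL3 were separated, and without SNU-1105 PCDH9 was. Leaving out other lines also separated members, among them LOXL3 and MMP16 (KALS-1 left out), LAMA4 (T98G), PDGFRA (LN-18) and EPHA5 (LN-229). Over all rows the share went from 5.9% to between 7.38% and 10.49% when a line was left out.

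Neuronal, guidance, channel, Wnt and ABC transporter genes had 1 or 2 separated members each, 5.26% to 25% of those listed beside 5.9% of all rows. Of 24 neuronal and synaptic genes 8 were listed, 7 higher in the 5 lines (87.5% against 59.6% of all rows), and SYT1 and NLGN1 were separated. SYT1, the calcium sensor of synaptic vesicles, had 35 CPM ± 5.02 in KNS-42, 40.6 ± 1.31 in LN-229, 2.29 ± 0.011 in SNU-1105, 15 ± 3.19 in U-138MG and 26.8 ± 2.68 in U-87MG. SYT1 in the 3 lines ranged from 0.0265 CPM (T98G) to 1.62 (KALS-1). NLGN1, a postsynaptic adhesion protein, had 148 CPM ± 0.247 in KNS-42, 52.4 ± 4.83 in LN-229, 21.7 ± 3.3 in SNU-1105, 61.1 ± 12.9 in U-138MG and 23.4 ± 3.08 in U-87MG. NLGN1 in the 3 lines ranged from 0.22 CPM (T98G) to 16 (KALS-1). Of 45 axon guidance genes 15 were listed, 12 higher in the 5 lines (80.0%), with SLIT3 and NRP1 separated. SLIT3, a ligand of ROBO receptors, had 46 CPM ± 0.0373 in KNS-42, 21.9 ± 0.964 in LN-229, 1.06 ± 0.559 in SNU-1105, 4.19 ± 0.278 in U-138MG and 29.2 ± 2.24 in U-87MG. SLIT3 in the 3 lines ranged from 0.0254 CPM (LN-18) to 0.266 (KALS-1). NRP1, a receptor for class 3 semaphorins and VEGF, had 275 CPM ± 32.6 in KNS-42, 250.2 ± 41.3 in LN-229, 467 ± 7.02 in SNU-1105, 448 ± 35.2 in U-138MG and 814 ± 36.4 in U-87MG. NRP1 in the 3 lines ranged from 67.5 CPM (LN-18) to 178 (KALS-1). The 10 sodium and calcium channel genes listed were matched by symbol and include the antisense RNA SCN1A-AS1. Of these SCN2A was separated (5.05 to 21.5 CPM against 0.191 to 2.11 CPM). Of 19 potassium channel genes KCNN3 was (3.31 to 63.5 CPM against 0.438 to 1.16 CPM). Of 10 Wnt pathway genes listed, 8 higher in the 5 lines (80.0%), the receptor FZD6 was separated (37.4 to 161 CPM against 0.19 to 31.6 CPM, with KALS-1 at the low end). Of 12 ABC transporters, the cholesterol exporter ABCA1 was separated (30.7 to 712 CPM against 4.04 to 27.9 CPM), and so was ABCA13 (2.03 to 89.6 CPM against 0.27 to 0.69 CPM). None of these separated genes passed edgeR's test; KCNJ12, a potassium channel called higher in the 3 lines, was the call in these families. SYT1 was not separated with TMM factors, nor NLGN1, NRP1, FZD6 and ABCA1 with TMM or RLE factors; SLIT3, SCN2A, KCNN3 and ABCA13 were under both.

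Homeobox genes outside the HOX clusters were divided between the sides about as all rows were. The 21 listed were matched by symbol and include the antisense RNAs DLX6-AS1, PITX1-AS1 and POU2F2-AS1. Of the 21, 9 were higher in the 3 lines and 12 in the 5 (57.1% against 59.6%). Separated were 3 (14.3% against 10.3%), with ALX4 among those on the first side and PRRX1 on the second. Of 4 HOX genes HOXA13 was separated (25% against 4.37% of all rows). HOXA13 had 37.5 CPM ± 4.57 in KALS-1, 7.42 ± 0.0079 in LN-18 and 8.21 ± 3.51 in T98G, and the 5 lines ranged from 0 CPM (U-87MG) to 4.54 (SNU-1105). Of 27 numbered zinc finger genes, matched by symbol with ZNF277-AS1, ZNF503-AS1, ZNF236-DT and ZNF807P among them, 18 were higher in the 3 lines. In the 5 lines 33.3% were higher, against 59.6% of all rows. LN-18 was above all 5 lines in 18 (66.7% against 33.3%), KALS-1 in 15 (55.6% against 28.5%) and T98G in 6 (22.2% against 25.1%). ZNF334, ZNF467 and ZNF835 were separated towards the 3 lines. ZNF575 was separated towards the 5, but not with TMM or RLE factors. In either direction 14.8% of the 27 were separated, against 10.3% of all rows. MMP13, a collagenase, was the separated metalloproteinase of 5 listed (20% against 4.37% of all rows). MMP13 had 2.11 CPM ± 0.339 in KALS-1, 22.6 ± 1.99 in LN-18 and 11 ± 3.45 in T98G, and the 5 lines ranged from 0 CPM (KNS-42) to 0.352 (U-138MG). CCND3, cyclin D3, was the cell cycle gene listed, 1 of 30 searched for, with 95.7 CPM ± 5.02 in KALS-1, 120.3 ± 4.4 in LN-18 and 97.5 ± 30.1 in T98G, and the 5 lines ranged from 24.5 CPM (U-87MG) to 49.9 (KNS-42). IGFBP5, a binding protein of insulin-like growth factors, had 5108 CPM ± 115 in KALS-1, 3678 ± 41.4 in LN-18 and 9796 ± 2861 in T98G, and 2848 CPM ± 218 in KNS-42, 85.8 ± 27.1 in LN-229, 1403 ± 7.65 in SNU-1105, 1017 ± 8.26 in U-138MG and 3.13 ± 0.0843 in U-87MG; KNS-42 came within 1.22-fold of the lowest library. RPL39 and RPS18, ribosomal proteins, were nearly even over the 3 lines and less so over the 5. RPL39 had 386 CPM ± 22.9 in KALS-1, 340.1 ± 12.8 in LN-18 and 314 ± 14.3 in T98G, and the 5 lines ranged from 91.9 CPM (U-138MG) to 211 (U-87MG). RPS18 had 578 CPM ± 37.2 in KALS-1, 736 ± 61.4 in LN-18 and 698 ± 61.8 in T98G, and the 5 lines ranged from 227 CPM (U-138MG) to 477 (SNU-1105). Both have many processed copies in the genome, so their reads may be shared, and RPL39P3 was separated beside RPL39.

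Leaving out a line in turn shows which lines limit the shared sets. Without T98G the count higher in the 3 lines went from 97 to 244, and without KALS-1 to 229, but without LN-18 to 145. The count higher in the 5 lines went from 131 to 233 without KALS-1, 212 without KNS-42, 195 without LN-229, 192 without SNU-1105, 188 without T98G, 173 without LN-18 or U-87MG and 164 without U-138MG. A smaller side always separates more easily, so the counts can be set beside each other only within a side. The highest line of the 97 was LN-18 in 37, KALS-1 in 30 and T98G in 30; of the 131 it was U-138MG in 34, KNS-42 in 33, U-87MG in 32, LN-229 in 21 and SNU-1105 in 11. So no line dominated the first set, and SNU-1105 was seldom the highest in the second.

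The genes shared by the 5 lines were unevenly placed in the genome (GENCODE 29, GRCh38). Chromosome 2 held 32 of the 131, or 24.4%, against 9.85% of the located listed genes. With TMM factors it held 7 of 39 and with RLE factors 9 of 45. By side means, 180 of its 212 listed genes (84.9%, under each scaling) had the higher mean in the 5 lines, against 59.7% of the 2153 located genes. Between 140000000 and 220000000 on chromosome 2, a window set after the values were seen, 86 of 93 listed genes were higher in the 5 lines (92.5%), and 24 of those were separated. These include ZEB2, ACVR1C, SCN2A, RFTN2 and ADAM23. In the median gene of the window the 3 lines lay 0.67 (KALS-1), 0.88 (LN-18) and 0.84 (T98G) below the mean of the 8 lines in log2(CPM + 0.5), and the 5 lines 0.29 to 0.76 above it, while over the other 2060 located genes the medians were -0.32 to -0.47 and -0.13 to -0.19. All 3 lines and all 5 lines thus showed the same sign in the window. The 86 of 93 held under TMM and RLE factors, but the separated count was 6 and 8. IGFBP5, inside the window, and NYAP2, beyond it, were the 2 genes of chromosome 2 separated the other way.

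On chromosome 16, 71 of 86 listed genes had the higher mean in KALS-1, LN-18 and T98G, and on chromosome 19, 72 of 101, against 40.4% of all rows. With 3.99% of the located listed genes, chromosome 16 held 6 of the 97 separated genes (6.19%) and none of the 131. Chromosome 6 held 12 of the 97 (12.4%, against 5.9% of the located listed genes), and the stretch between 30000000 and 45000000, with 1.765% of the located genes, held 7 (7.22%). The 7 were PSMB9, RPS18, WDR46, PFDN6, BLTP3A, CCND3 and MRPL2. This window, again set after the values were seen, held 15 of 234 with TMM factors and 13 of 221 with RLE factors. Of its 38 listed genes 22 were higher in the 3 lines, and 42.1% were higher in the 5, against 59.7% of all located genes. None was separated towards the 5 lines, where 5.9% of all rows were, and 0 of so few is near that share.

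**Figure D4:**
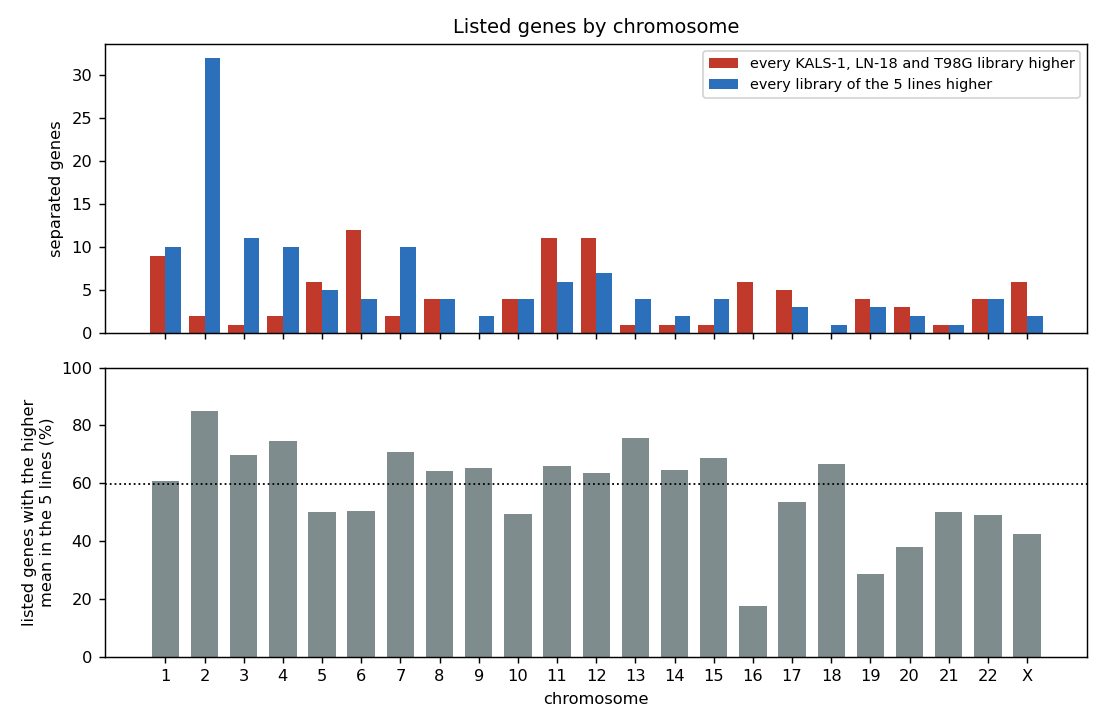
Separated genes per chromosome (top, number of genes by side) and share of listed genes with the higher mean in the 5 lines (bottom, percent; dotted line at the 59.7% of all located genes). Chromosome 2 has 32 genes separated towards the 5 lines and 84.9% of its genes higher there (7 and 9 separated with TMM and RLE factors), and chromosome 16 has the lowest share.

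Separated genes that neighbour each other lay on the same side. Of 23 neighbouring pairs whose lower coordinates were at most 200000 bases apart, all 23 were on 1 side, 15 on that of the 3 lines and 8 on that of the 5. They include FMNL1-DT, FMNL1 and MAP3K14 on chromosome 17. On chromosome 12 they are OLR1 with TMEM52B, KRT86 with KRT81, and TXNRD1 with EID3. RPS18, WDR46 and PFDN6 are on chromosome 6, and MAGT1 and ATP7A on chromosome X. Towards the 5 lines they include COQ10B, not separated with TMM or RLE factors, with RFTN2 on chromosome 2. SLC35E4, DUSP18 and OSBP2 are on chromosome 22. Several of these overlap. Libraries kept the strand, but whether counting used it is not stated, so reads of overlapping partners such as OLR1 and TMEM52B may not be told apart. FMNL1, a formin that nucleates actin, had 10.499 CPM ± 0.342 in KALS-1, 68.3 ± 0.65 in LN-18 and 19.4 ± 3.93 in T98G, and the 5 lines ranged from 0.148 CPM (LN-229) to 3.7 (SNU-1105). MAP3K14, the kinase NIK of the noncanonical NF-kB pathway, had 60.8 CPM ± 2.69 in KALS-1, 42 ± 3.62 in LN-18 and 94 ± 18.6 in T98G, and the 5 lines ranged from 5.38 CPM (U-87MG) to 26.7 (KNS-42). LN-18 was highest in FMNL1 and FMNL1-DT, and T98G in MAP3K14. In RefSeq, FMNL1 and FMNL1-DT start 120 bases apart on opposite strands, while their GENCODE 29 spans overlap. The promoter window of FMNL1 is shown because it holds both RefSeq starts; capitals mark the 119 bases between them.

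FMNL1, chr17:45221635-45221934, plus strand, RefSeq GRCh38.p14: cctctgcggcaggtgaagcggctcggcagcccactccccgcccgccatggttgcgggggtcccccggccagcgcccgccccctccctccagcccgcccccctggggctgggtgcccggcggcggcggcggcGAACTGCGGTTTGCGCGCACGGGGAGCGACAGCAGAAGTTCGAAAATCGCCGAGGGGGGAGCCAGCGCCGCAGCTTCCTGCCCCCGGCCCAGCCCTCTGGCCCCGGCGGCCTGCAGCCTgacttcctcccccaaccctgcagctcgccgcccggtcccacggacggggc

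Shared genes also differed by length and base composition. Among coding genes, those separated towards KALS-1, LN-18 and T98G (82) had a median length of 3782 bases in the deposited table and a median transcript GC content of 52.3%, and those separated towards the 5 lines (122) had 7539 bases and 43.7%, beside 5249 bases and 48.7% for all 1581 listed coding genes. Length was available for all of the separated genes and GC content for at least 98.97% of each set. Of the 131 genes of the 5 lines, 37 stayed separated under both TMM and RLE factors. Length and GC content were not compared in those alone. Listed coding genes were also cut into 3 equal groups. From the shortest to the longest group 51.8%, 59.0% and 77.0% had the higher mean in the 5 lines. From the lowest to the highest GC content the shares were 73.8%, 65.3% and 48.8%. Place and composition went together in some regions but not in all. Listed genes had a median GC content of 41.4% in the chromosome 2 window, 54.0% on chromosome 16 and 55.7% on chromosome 19. Over all located genes it was 48.3%. The part of each in the lean of a region was not tested.

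**Figure D5:**
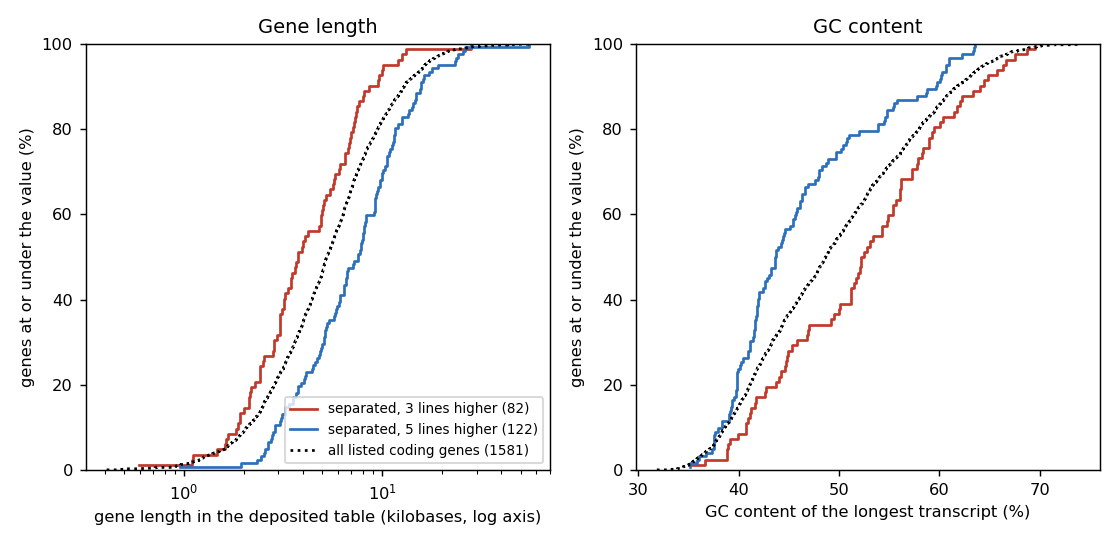
Cumulative share of coding genes (vertical, percent) by gene length in the deposited table (left, kilobases on a log axis) and by GC content of the longest transcript (right, percent). The curve of genes separated towards the 3 lines lies left of that of all listed coding genes for length and right of it for GC content, and that of genes separated towards the 5 lines does the reverse. Separation is by library totals, and 37 of all 131 genes of the 5 lines kept it under both TMM and RLE factors.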

How the data were processed

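RNA from 8 untreated human glioblastoma lines, 2 libraries each, was compared as KALS-1, LN-18 and T98G against KNS-42, LN-229, SNU-1105, U-138MG and U-87MG. The authors deposited raw read counts per gene, FPKM (reads scaled to gene length and library total) and gene length, for 2221 genes. The tools named in the submitters' processing notes are HISAT2 2.2.1 and StringTie 1.3.3, with HTSeq 0.6.0, and FastQC 0.10.1 beside cutadapt 1.9.1, on hg38/GRCh38; their roles are not stated. How rows were chosen, the annotation release and the use of strand in counting are not given in the sources used here.

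Library totals were computed from counts, length and FPKM where a gene had 200 reads or more and 20 FPKM or more. Within a library these totals differed by at most 0.0258%, and they returned at least 99.91% of the deposited FPKM within 0.01. Totals ran from 17117491 to 21011463 reads. CPM are counts over these totals. Symbols matched for 2220 genes and GENCODE 29 positions for 2153.

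The main test was edgeR 4.0.16 quasi-likelihood (R 4.3.3) on counts summed per line, with these totals and no further scaling, for genes with at least 10 reads in at least 3 lines; calls needed a Benjamini-Hochberg adjusted p under 0.05 over 1705 genes and an absolute log2 fold change of 1. P-values measure the spread between lines. Separation needed strict order of CPM over 16 libraries and 10 reads in each library of the higher side; gaps used log2(CPM + 0.5). Named genes were the 15 widest gaps per direction with at least 10 CPM in each higher line, up to 10 called genes per direction by fold with at least 10 CPM, separated members of each list or family (up to 4 per direction), and the 5 highest separated genes per direction by CPM. The split, lists and families were chosen with earlier results of these data known, so the counts are not independent evidence. Scripts were tested on simulated counts. Alternatives were TMM and RLE factors, DESeq2 1.42.0, limma 3.58.1, other read filters, library-level fits, and leaving out a line or library. The 3 lines of the second table were not used. Some genes under the naming rule are not reported here.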

Additional observations from a re-analysis of the deposited data

Results flagged for a closer look

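Among the 82 genes described, the 5 line means of KNS-42, LN-229, SNU-1105, U-138MG and U-87MG were searched on the log2(CPM + 0.5) scale for a line far from the other 4, at Dixon's 95% critical value of 0.71 for the gap divided by the range. Chance alone is expected to mark about 1 in 20 such groups, and 10 were marked. A line stood above the others in ALX4 (SNU-1105 at 2.57 CPM), MTUS1 (LN-229 at 7.76 CPM), ABCA1 (U-87MG at 712 CPM), SCN2A (U-138MG at 21.5 CPM), KCNN3 (LN-229 at 63.5 CPM) and CDH1 (KNS-42 at 0.565 CPM). A line stood below the others in TXNRD1 (U-138MG at 159 CPM), CCND3 (U-87MG at 24.5 CPM) and STXBP6 (KNS-42 at 2.87 CPM). OLR1 was marked for SNU-1105 at 0.0250 CPM, which is 1 read in 1 library with 0 in the other 9, within what counting error gives. Except for CDH1, these genes were separated, so a marked line lay on its own side of the gap.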

How the results depend on the processing

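The number of called genes was the least stable result. Beside 20 (14 higher in KALS-1, LN-18 and T98G and 6 in the 5 lines), DESeq2 gave 860 (519 and 341), RLE factors 52 (45 and 7), TMM factors 40 (33 and 7), limma on line means 62 (38 and 24), a filter of 50 reads 7 (4 and 3) and no filter 0 (0 and 0). Leaving out a line gave 0 to 1 (0 to 1 and 0 to 0), and leaving out a library 0 to 23 (0 to 17 and 0 to 8). TMM and RLE factors moved the median log2 fold change by 0.69 and the share of calls higher in the 3 lines from 70.0% to 82.5% and 86.5%, while it was 60.3% with DESeq2. Fits that count the 2 libraries of a line as independent gave 1468 calls with no replicate block (539 and 929) and 1468 with the replicate block (538 and 930); the library numbers do not pair lines, since over 28 pairs of lines the correlation of same-numbered deviations was -0.297 to 0.171. Library-level limma with a correlation within lines gave 212 (82 and 130).

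Separated genes (97 and 131, 228 in all) numbered 234 and 39 with TMM factors, 221 and 45 with RLE factors, 139 and 150 with no minimum of reads, and 175 and 215 (390) over line means. Over line means with no minimum of reads they numbered 296 and 325. Leaving out a line gave 103 to 244 and 164 to 233 (267 to 462 in all), and leaving out a library 98 to 125 and 134 to 157 (234 to 282). Of the genes described, IFI27 and IFI6 turned to -0.45 and -0.12 in log2 fold change without KALS-1 (leaving out a line or library gave -0.45 to 9.69 and -0.12 to 5.46); no other turned under any alternative. Depth limits genes near 3 reads per library, where a level of 0 cannot be told from a low one.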
